A study of Mus musculus with 2 samples.

Results

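The endocrine-associated microRNA loci Mir375, Mir7-1, Mir7-2 and Mir7b were followed in mouse facial prominences of embryonic day 11.5. They were chosen by name as genes known from pituitary and other endocrine cells, and all 4 were found among the 1973 microRNA loci of the count tables. Facial prominences are the embryonic swellings of mesenchyme and covering epithelium that form the face. Small RNA (size range below 30 bases, per the labels) was sequenced from total RNA of 2 pools of healthy B6NCrl embryos of both sexes, with 88 embryos in replicate 2 and 109 in replicate 1. There was 1 group, with no treatment, mutation or second tissue, so values are compared between loci and between the pools. Both pools carry the same donor entry and are numbered as separate biological replicates.

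MicroRNAs are cut from hairpin transcripts, and the bases 2 to 8 of the mature strand, the seed, do most of the target recognition. The microRNA miR-375 is abundant in pancreatic islets and the pituitary, where it is known for limiting insulin secretion and for keeping up the mass of endocrine cells, and it is also made by some epithelia. The miR-7 microRNAs are known from the same endocrine tissues and from neurons, act on growth factor and mTOR signalling, and are bound by the circular RNA Cdr1as. The anterior pituitary arises from oral ectoderm. The labels do not say whether tissue of that origin was dissected with the prominences.

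The mature strands are shown first, because the Mir7 loci differ from each other in few bases and this sets which reads can be told apart. Capitals mark the seed, and the sequences are those of RefSeq for GRCm38.p6. That source held no 3p entry for Mir375, so its 3p strand and seed are not shown. The 5p strand and seed of Mir375 are therefore not to be read as those of the miR-375 known from endocrine cells.
miR-7a-5p (from both Mir7-1 and Mir7-2): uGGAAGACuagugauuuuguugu
miR-7b-5p (from Mir7b): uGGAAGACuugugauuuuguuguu
miR-7a-1-3p (from Mir7-1): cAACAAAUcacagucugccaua
miR-7a-2-3p (from Mir7-2): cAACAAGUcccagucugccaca
miR-7b-3p (from Mir7b): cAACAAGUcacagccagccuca
miR-375-5p (from Mir375): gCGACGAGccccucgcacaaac
The 5p strands of all 3 Mir7 loci had the same seed. miR-7a-5p and miR-7b-5p were identical at 22 of the first 23 bases and differed by A10U, counted from 1 at the 5′ end of miR-7a-5p, which lies outside the seed. On the 3p side Mir7-2 and Mir7b had the same seed, and Mir7-1 differed from Mir7-2 by A7G within it and by A10C and U21C outside it. No other locus among the 1738 mature entries of the table had any of these seeds. The seed of the Mir375 3p strand was not searched.

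The hairpins show where the Mir7 copies run alike. Capitals mark the longest run shared with Mir7-2 (in Mir7-1) or with Mir7-1 (in Mir7-2 and Mir7b), and miR-375-5p in Mir375.
Mir7-1: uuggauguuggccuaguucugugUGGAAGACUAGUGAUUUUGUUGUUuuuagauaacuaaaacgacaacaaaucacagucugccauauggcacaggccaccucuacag
Mir7-2: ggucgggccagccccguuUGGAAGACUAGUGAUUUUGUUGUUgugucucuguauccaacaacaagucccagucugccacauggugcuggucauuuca
Mir7b: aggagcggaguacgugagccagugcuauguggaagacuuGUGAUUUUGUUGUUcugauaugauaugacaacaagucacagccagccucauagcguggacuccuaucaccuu
Mir375: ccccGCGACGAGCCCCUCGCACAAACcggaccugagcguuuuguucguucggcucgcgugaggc
Mir7-1 and Mir7-2 shared a run of 24 bases that begins at the first base of miR-7a-5p. Mir7b shared at most 14 bases in a row with either of them, and Mir375 at most 7 with any Mir7 hairpin. Over the whole hairpin, Mir7-1 was identical to Mir7-2 at 68.8% of alignment columns and to Mir7b at 66.9%. The Mir375 hairpin was shorter, at 64 bases against 97 to 111 for the Mir7 hairpins, and richer in G and C, at 67.2% against 41.7%, 50.5% and 46.8% for Mir7-1, Mir7-2 and Mir7b.

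The 4 loci lie on different chromosomes (GRCm38, mm10). Mir375 (chr1:74900658-74900721, minus strand) lies between genes, 1349 bases from Cfap65, a gene of cilia and flagella, and 7514 bases from Cryba2, a beta-crystallin gene. Mir7-1 (chr13:58392779-58392886, minus strand) lies in an intron of Hnrnpk, which encodes a widely expressed RNA-binding protein, on the same strand. That intron is the last one in all 12 annotated Hnrnpk transcripts that span it. Mir7-2 (chr7:78888277-78888373, plus strand) is 7480 bases from Aen, an exonuclease gene, and Mir7b (chr17:56242988-56243098, plus strand) is 182 bases from the lincRNA gene AC026385.1 and 13711 bases from Fem1a. No annotated gene overlaps Mir375, Mir7-2 or Mir7b.

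Sense counts over all loci came to 2319881 for replicate 2 and 1941745 for replicate 1, and levels are given in CPM, which scales each library to a total of 1000000 of these. The limit for a count of 0 (3 counts) is 1.29 CPM for replicate 2 and 1.55 CPM for replicate 1. Reads placed at several positions have a line of their own in the tables, with 33.3% and 32.9% of the mapped reads, and are taken from this layout to be outside the counts of any locus, since the counting program is not given in the sources used here. Counts of the pools differed beyond sampling noise (chi-square 14731, 362 degrees of freedom), so the tables are not copies of the same library; that the pools are separate samples rests on the labels. Intervals on counts cover counting error only, since no molecular identifiers are named. In such bulk tissue, fewer cells of a type and less RNA per cell cannot be told apart.

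All 4 loci were present in both pools, and Mir375 had the most assigned counts. They each had at least 10 counts in both libraries, as did 17.8% of all loci in the tables (351 of 1973). Together they took 0.133% of the counts in replicate 2 (exact Clopper-Pearson 95% interval 0.128 to 0.137%) and 0.125% in replicate 1 (0.120 to 0.130%), or 0.129% ± 0.00536 (SD, n = 2). Mir375 alone made up 66.0% and 66.6% of that sum. Within the level order of the 351 detected loci, Mir375 stood at place 115, Mir7-1 at 176, Mir7b at 183 and Mir7-2 at 247, so that Mir7-1 was the median detected locus.

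Mir375 had 2032 counts in replicate 2 and 1618 in replicate 1, which is 876 CPM (exact Poisson 95% interval 838 to 915) and 833 CPM (793 to 875), or 855 ± 30.1 CPM (SD, n = 2). Its intervals in the pools overlapped. Mir7-1, the copy within Hnrnpk, had 481 and 343 counts, which is 207 CPM (189 to 227) in replicate 2 beside 177 CPM (158 to 196) in replicate 1, or 192 ± 21.7 CPM. Mir7b had 424 and 354 counts, which is 183 CPM in replicate 2 (166 to 201) beside 182 CPM in replicate 1 (164 to 202), or 183 ± 0.324 CPM. The counting intervals of Mir7-1 and Mir7b overlapped in both pools. Mir7-2 had 141 and 114 counts, which is 60.8 CPM in replicate 2 (51.2 to 71.7) beside 58.7 CPM in replicate 1 (48.4 to 70.5), or 59.7 ± 1.46 CPM. It had the fewest assigned counts of the 4 in both libraries, and its intervals overlapped with none of the others.

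**Figure D1:**
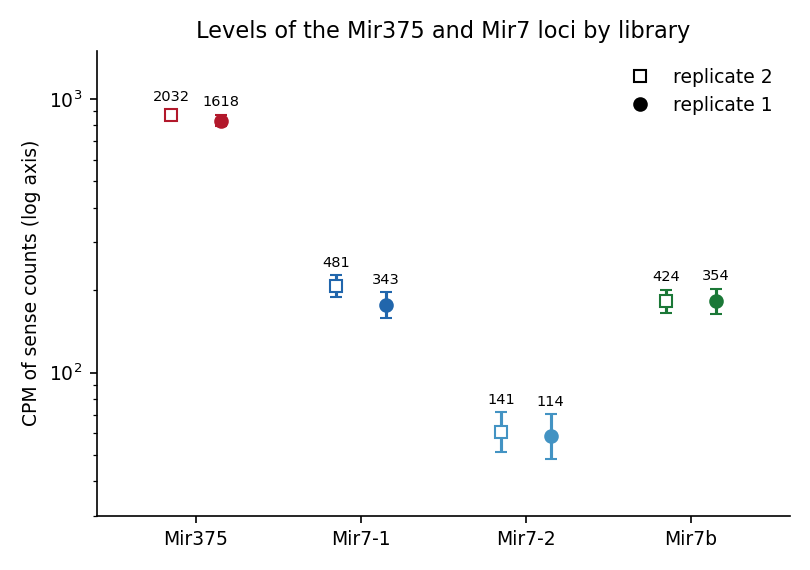
CPM of sense counts (log axis) of each locus in replicate 2 (open squares) and replicate 1 (filled circles), with exact Poisson 95% intervals as bars and the raw count above each point. Mir375 sits at 876 and 833 CPM, Mir7-1 and Mir7b lie side by side near 200 CPM, and Mir7-2 is near 60 CPM.

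**Figure D2:**
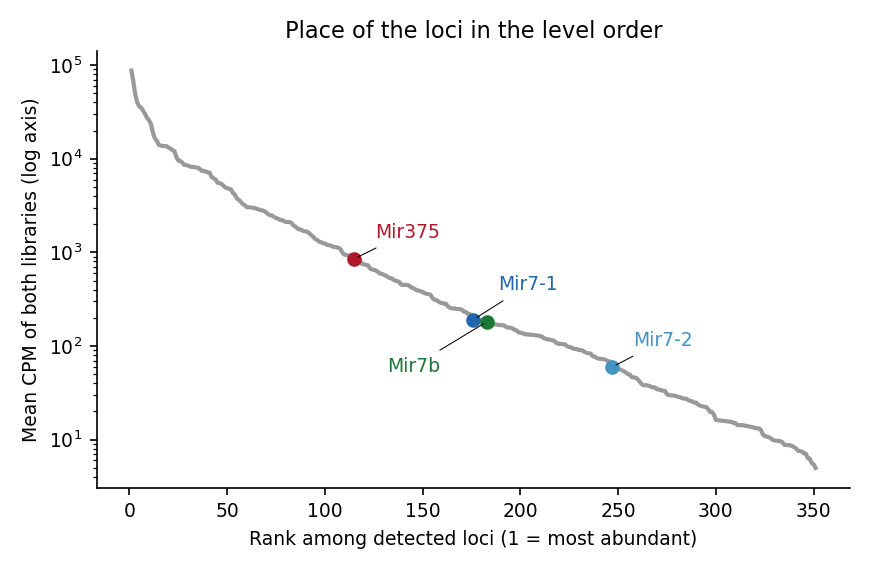
Mean CPM of both libraries (log axis) of the 351 loci with at least 10 counts in each, ordered from most to least abundant. Mir375 is at place 115, Mir7-1 at 176, Mir7b at 183 and Mir7-2 at 247.

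Differences between the loci in the counts as deposited were then set against the difference between pools. Neither they nor their intervals take in reads that Mir7-1 and Mir7-2 may have lost to the class placed at several positions, as described further on. A difference was called larger when its log2 size was, in both libraries, above the shift of either locus from pool to pool. With 2 libraries this bar can lie below counting error. For Mir7-2 against Mir7b it was 0.05, while the counting interval of the shift of Mir7-2 was -0.32 to 0.42. The 95% intervals combine counting error with the coefficient of variation of 16.7% that edgeR estimated over 363 loci. Call and interval rest on variation of the same locus between pools. A bias between sequences that both libraries share is not covered by them, for any pair. Mir375 exceeded Mir7-1 by a log2 ratio of 2.08 in replicate 2 and 2.24 in replicate 1 (mean 2.16, interval 1.67 to 2.64). It exceeded Mir7b by 2.26 and 2.19 (mean 2.23, 1.74 to 2.71) and Mir7-2 by 3.84 and 3.82 (mean 3.83, 3.33 to 4.34). Each of these was larger than the difference between pools, and so was the difference between Mir375 and the sum of the 3 Mir7 loci, which was added after the values were known. That sum came to 451 CPM in replicate 2 beside 418 CPM in replicate 1, and Mir375 was above it 1.94-fold and 2.00-fold. Where reads of the Mir7 copies are missing, their levels and this sum are lower bounds, and the ratios of Mir375 to Mir7-1, to Mir7-2 and to the sum are upper bounds whose direction the tables do not settle.

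Among the Mir7 loci, Mir7-1 exceeded Mir7-2 by 1.77 in replicate 2 and 1.58 in replicate 1 (mean 1.68, 1.16 to 2.19). The counts assigned to Mir7-2 were below those of Mir7b by a log2 ratio of -1.58 and -1.63 (mean -1.61, -2.12 to -1.09), a difference in assigned counts and not in mature strands. Mir7-1 and Mir7b changed places between the pools, with a log2 ratio of Mir7-1 over Mir7b of 0.18 in replicate 2 and -0.05 in replicate 1 (mean 0.07, -0.42 to 0.56). Of the 6 pairs this was the one whose difference did not exceed the difference between pools, and the interval leaves room for either locus to be higher. Mir7-1 supplied 46.0% of the counts at Mir7 loci in replicate 2 and 42.3% in replicate 1, Mir7b 40.5% and 43.6%, and Mir7-2 13.5% and 14.1%. Per 100 bases of hairpin the order stayed with Mir375 first and Mir7-2 last, at 1369 and 1302 CPM for Mir375, 192 and 164 for Mir7-1, 165 and 164 for Mir7b, and 62.7 and 60.5 for Mir7-2.

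The counts at Mir7-1 and Mir7-2 may be incomplete, since their shared 5p strand matches both hairpins, and how many reads this concerns was not measured. A read that begins at the first base of miR-7a-5p matched the other copy at every length from 16 to 24 bases, and neither copy's hairpin had a window in common with another hairpin from 25 bases on. The annotated strand of 23 bases falls within that range. It was found in exactly 2 of 141767 annotated transcripts, those of Mir7-1 and Mir7-2, so that reads which end where annotated have at least 2 positions. The 3p strands of the 2 copies were told apart at every length compared. At 22 bases, 3 of 87 windows of Mir7-1 and 3 of 76 of Mir7-2 were shared.

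For Mir7b and Mir375 no window of 16 to 29 bases occurred in any other of the 1005 hairpins on either strand. Through identical matches, their counts are therefore open to loss of this kind only outside the hairpin table, and a genome sequence was not used here. Matches with a mismatch were not searched, and what the aligner allowed is not given, so loss through near matches was not measured. Over the bases they have in common, miR-7b-5p and miR-7a-5p are told apart by A10U alone. Which strand or length of read supplied the counts at each locus is not recorded in the tables. The level of miR-7a-5p, and so its order against miR-7b-5p and the microRNA of Mir375, cannot be read from them.

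**Figure D3:**
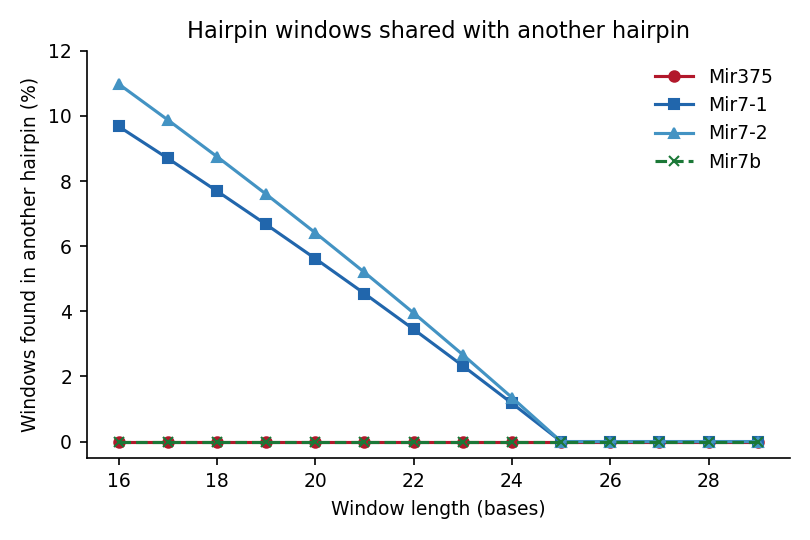
Share of all windows of a given length (x axis, bases) in each hairpin that also occur in another of the 1005 hairpins on either strand (y axis, %). Mir7-1 and Mir7-2 share windows with each other up to 24 bases, while the lines of Mir375 and Mir7b lie at 0 throughout.

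All counts at the 4 loci were on the sense strand. Opposite-strand counts were 0 in both libraries at each locus, which by the limit of 3 counts allows up to 0.0822% of the stranded counts at Mir375, 0.364% at Mir7-1, 0.386% at Mir7b and 1.18% at Mir7-2. Such a 0 is the usual case, found at 90.7% of the 257 loci that averaged at least 100 counts.

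The loci varied little between the pools. The log2 ratio of CPM, replicate 2 over replicate 1, was 0.07 for Mir375 (exact binomial 95% interval -0.02 to 0.17), 0.05 for Mir7-2 (-0.32 to 0.42) and 0.00 for Mir7b (-0.20 to 0.21), and each of these intervals holds 0. For Mir7-1 it was 0.23 (0.03 to 0.44), a 1.17-fold difference that counting error alone does not cover. Of the 257 loci that averaged at least 100 counts, 71 had a larger absolute log2 ratio than Mir7-1, and the median absolute ratio was 0.14. None of the 4 passed 2-fold, as did 1.95% of those loci (5 of 257). All 4 ratios were above 0, where 50.6% of those loci were higher in replicate 2, but that of Mir7b was 0.00 to 2 decimals.

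**Figure D4:**
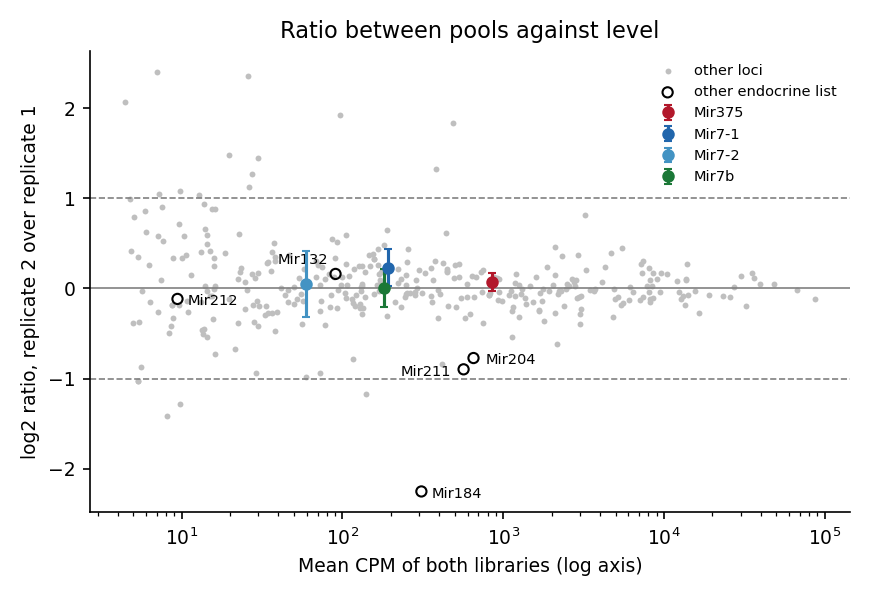
Log2 ratio of CPM, replicate 2 over replicate 1, against the mean CPM (log axis) for the 363 loci that averaged at least 10 counts. Coloured points with exact binomial 95% intervals are the 4 loci, between 0.00 and 0.23, open circles are the 5 other loci listed for endocrine cells, and dashed lines mark 2-fold.

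A list of 5 other loci was drawn up for endocrine cells, but none of them is particular to such cells. It was chosen with earlier results of these data known, so its contrast with the 4 loci is description only. Of these, Mir204, Mir211 and Mir184 had larger ratios between the pools than any of the 4 loci above, and Mir132 and Mir212 did not exceed that of Mir7-1. All 5 were detected, with a median of 310 CPM beside 187 CPM for the 4 loci above and 192 CPM for all detected loci. Mir204, known from islets and from the retina and choroid plexus, had 483 CPM in replicate 2 beside 825 CPM in replicate 1, and its relative Mir211, listed for that likeness and known from pigment cells, had 396 and 738 CPM. Mir184, known from islets as well as lens and cornea, had 107 and 512 CPM. Mir132 and Mir212, a pair known from gonadotropes and neurons, had 95.7 and 85.5 CPM and 9.05 and 9.79 CPM. Of these 5 loci, 4 were lower in replicate 2, with a median log2 ratio of -0.77 and a range of -2.26 to 0.16. Among them Mir212, with 21 and 19 counts, had an interval of -1.08 to 0.86, which holds 0. The 4 loci above ran from 0.00 to 0.23, and the median of 363 loci that averaged at least 10 counts was 0.02. Of the 257 loci that averaged at least 100 counts, 50.6% were higher in replicate 2. The summed share of the 5 listed loci was 0.109% in replicate 2 and 0.217% in replicate 1. With 1 library on each side, no test of this difference between the lists exists.

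Loci listed for other tissues were set beside the 4 loci, and their part in these levels was not tested. Whether the listed loci are particular to those tissues was not tested either, so a share is not an amount of tissue. All 7 measured loci listed for mesenchyme were detected, with a share of 7.12% in replicate 2 and 6.85% in replicate 1. Mir214, Mir23b and Mir140 were in front at 29999 ± 2093, 27209 ± 268 and 8587 ± 460 CPM. All 7 epithelial loci were detected too, led by Mir429, Mir205 and Mir203 at 8239 ± 458, 8049 ± 165 and 6028 ± 381 CPM. They took 2.95% and 3.31%, and all 7 were lower in replicate 2, with log2 ratios from -0.40 to -0.04, while Mir375 stood at 0.07. Higher in replicate 2 were 50.6% of the 257 loci that averaged at least 100 counts. Loci of a list can lie in shared clusters, which was not examined, so the 7 are not counted as independent loci. Of 12 measured neural loci 7 were detected, with a share of 0.216% in replicate 2 and 0.263% in replicate 1. Mir137, Mir219a-2 and Mir219a-1 led them at 1246 ± 195, 750 ± 139 and 188 ± 3.02 CPM, while the 3 copies of the neuron-defining Mir124a had 7 counts (Mir124a-2), 1 (Mir124a-1) and 0 (Mir124a-3) in replicate 2 and 9, 0 and 0 in replicate 1, and as near-identical copies may also lack reads. Other numbered copies in these lists, such as Mir128-1 and Mir128-2 or Mir199a-1 and Mir199a-2, may lack reads too. Their sequences were not compared.

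The loci listed as sensory, Mir183, Mir182 and Mir96, were all detected and took 3.41% in replicate 2 and 3.28% in replicate 1, at 14050 ± 534, 13855 ± 1842 and 5549 ± 432 CPM. The loci listed for exocrine pancreas, Mir217, Mir216b and Mir216a, were detected at 140 ± 76.6, 59.0 ± 27.3 and 21.3 ± 6.99 CPM. The list names do not show that sensory or pancreatic cells were present. The share of the 3 exocrine pancreas loci was 0.0142% in replicate 2 and 0.0299% in replicate 1. All 3 were lower in replicate 2, with log2 ratios from -1.18 to -0.68, where 50.6% of the 257 loci that averaged at least 100 counts were higher. These 3 are likewise not counted as independent loci.

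**Figure D5:**
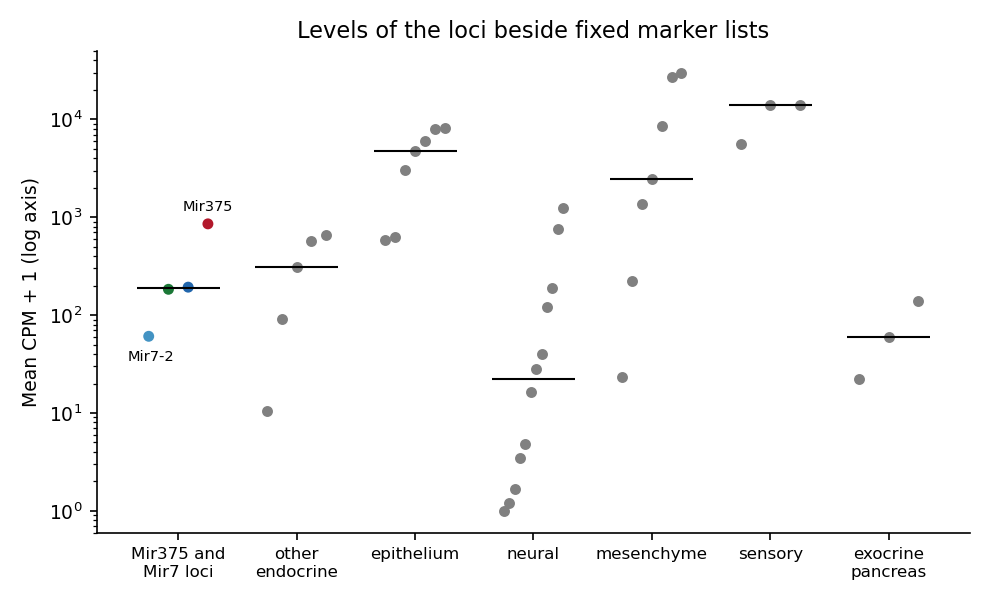
Mean CPM of both libraries plus 1 (log axis) of each locus, grouped as the Mir375 and Mir7 loci and the marker lists, with a bar at each median. The 4 loci span 59.7 to 855 CPM, and the median bars of the epithelial, mesenchymal and sensory lists lie above all of them.

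Loci of like level in both pools were found by the larger, over the 2 libraries, of the absolute difference in log2(CPM + 1). Nearest to Mir375 were Mir370, at 916 CPM in replicate 2 beside 841 CPM in replicate 1 (distance 0.06), Mir148a (0.10) and Mir25 (0.13). Nearest to Mir7-1 were Mir362, at 205 and 172 CPM (0.04), Mir700 (0.05) and Mir155 (0.08). Mir7b was nearest to Mir219a-1, at 190 and 185 CPM (0.05), followed by Mir155 (0.10) and Mir345 (0.12). Mir7-2 was nearest to Mir34b, at 62.5 and 53.6 CPM (0.13), Mir135a-1 (0.16) and Mir1955 (0.17). With 2 libraries the measure is one of neighbouring levels.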

How the data were processed

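Small-RNA libraries of 2 pools of facial prominence tissue were used, 1 group by the labels. Per the text that accompanies the files, the authors deposited gene quantifications, here raw counts for each microRNA gene, for mm10 with GENCODE M4. The aligner, counter and their settings are not given in the sources used here. The count columns are counts irrespective of strand, sense and opposite-strand counts, the first being the sum of the others at all 1973 loci. Sense counts were used, 96.8% and 97.0% of stranded counts in replicates 2 and 1. The 4 lines that name no gene stayed out of library sizes. Unmapped reads were 38.6% of 6781929 reads in replicate 2 (30.9% of 4755968 in replicate 1), those with several positions 20.5% (22.7%) and those at no locus 6.75% (5.51%).

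Symbols and positions came from GENCODE M21 (same assembly), which matched 1894 identifiers with versions ignored, and sequences from RefSeq, which held hairpins of all 4 loci and 7 of their mature entries. CPM, exact Poisson, Clopper-Pearson and binomial 95% intervals, and log2 ratios with 0.5 counts added were computed with scipy 1.17.1, numpy 2.4.6 and pandas 2.3.3 under Python 3.11.15; biopython 1.88 aligned hairpins and matplotlib 3.10.9 drew the plots. The dispersion (intercept only, mean count of at least 10) and library factors came from edgeR 4.0.16 and DESeq2 1.42.0 under R 4.3.3. Of these steps, the dispersion, the 2-fold limit between libraries and the interval of a difference between loci were tried on simulated counts. The exact intervals, alignments and window search were not. Named were the 4 loci, up to 3 loci of each list (all of the other endocrine list and, after their values were seen, the 3 copies of Mir124a), the 3 loci of most like level, and loci with a shared seed. The loci, lists and rules were chosen with earlier results of these data known. Of 42 listed symbols, 37 were measured under the name listed. The symbols not found include Mir124-1, Mir124-2 and Mir124-3, listed beside the Mir124a forms of the name, so they are not all missing loci. No test between conditions exists, and no p-value is given.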

Additional observations from a re-analysis of the deposited data

How the results depend on the processing

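Levels, shares, differences and ratios were recomputed, though not each with every setting. The settings were TMM and DESeq2 library factors, other pseudocounts, counts irrespective of strand, all reads as library size and leaving out each replicate. With all reads as library size the mean levels were 320 CPM for Mir375, 71.5 for Mir7-1, 68.5 for Mir7b and 22.4 for Mir7-2, and the summed share was 0.0482%, as that total is larger by construction. With counts irrespective of strand Mir375 had 828 CPM, Mir7-1 186 CPM, Mir7b 177 CPM and Mir7-2 57.9 CPM. Each level was lower because the total then takes in opposite-strand counts of other loci. All 5 called differences between the loci kept their direction and their call under each alternative run, per hairpin length included. Counts irrespective of strand could not change them, since opposite-strand counts at the loci were 0. Pseudocounts are small beside these counts, and hairpin length raises Mir375 by construction, as its hairpin is the shortest. None of the runs restores reads placed at several positions. Through identical hairpin matches such reads bear on all of these differences but Mir375 over Mir7b, and near matches were not searched. A bias between sequences that both libraries share is not covered either. With 1 library left, only the direction could be read. No ratio between pools left its counting interval with other library factors, other pseudocounts or counts irrespective of strand. The ratios were not recomputed with all reads as library size, which could move them. Detected loci numbered 563 with a minimum of 1 count. Loci past 2-fold numbered 20 with a minimum mean of 10 counts and 3 with 500. No paired analysis was possible because the study has 1 group. Depth limits Mir7-2 most, with 141 and 114 counts, and reads placed at several positions may limit the levels of Mir7-1 and Mir7-2.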
